A study of Mus musculus with 2 samples.

Results

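The 10 genes described here belong to the granules and receptors of eosinophils, basophils and mast cells, and were measured in RNA from mouse haematopoietic stem cells (HSCs). They are Prg2, Prg3, Epx and Siglecf on the eosinophil side, and Prss34, Mcpt8, Cpa3, Ms4a2, Fcer1a and Hdc on the basophil and mast cell side. The 10 were selected on a list of granule and receptor genes of these cells, out of 54531 genes in the deposited table, and the list was put together with the values of both libraries known. Their levels and ratios are therefore given as a description and carry no test. All 10 were found by symbol. Levels are in FPKM (fragments per kilobase of exon, scaled by library depth). Of the 10 genes, 8 had a mean over both libraries of at least 1 FPKM, the minimum used for counts below. Ms4a2 and Fcer1a fell under it.

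The HSCs came from bone marrow, and each genotype is represented by 1 library. The control library is labelled Angptl2fl/fl, that is, with loxP-flanked alleles of Angptl2, which encodes a secreted angiopoietin-like protein. The deletion library is labelled Cdh5-Cre;Angptl2fl/fl: the same floxed alleles plus Cre recombinase under the promoter of Cdh5 (VE-cadherin), a gene of endothelial cells. By title and genotype both groups share the floxed alleles. The control sample's description names Cdh5 and Cre and no Angptl2 allele, and the labels do not settle whether its mice carried Cre or the floxed alleles. The labels used here do not state strain, age, sort markers or how many mice were pooled. Without replicates "higher" and "lower" compare these libraries and not the genotypes, no p-value is given, and the spread between mice is unknown. In a bulk library, fewer cells of a type and less RNA per cell cannot be told apart.

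Eosinophils, basophils and mast cells are granule-bearing cells of allergic and antiparasite immunity, and their marrow progenitors use the transcription factors GATA1 and GATA2. Eosinophil granules hold the basic proteins encoded by Prg2 and Prg3 and the peroxidase encoded by Epx. Basophils and mast cells bind IgE through a receptor with subunits encoded by Fcer1a, Ms4a2 and Fcer1g, and release histamine, which histidine decarboxylase (Hdc) makes, together with granule proteases.

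The library depths, read from the steps of the values, were 17378600 fragments for the control and 16843100 for the deletion library. All 12 HSC markers examined were detected in both, among them Kit at 54.3 and 48.8 FPKM and Procr at 5.33 and 4.68 FPKM, while Slamf1 stood at 0.40 and 0.55 FPKM. From here on, where 2 levels of a gene follow each other, the control comes first. Angptl2 itself was at 0.27 and 0.18 FPKM from 29 and 19 fragments. The labels call the deletion specific to endothelial cells, and recombination in the HSCs was not tested. Erythroid genes were abundant as well, with Car1 at 1315 and 1629 FPKM.

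The eosinophil granule genes Prg2, Epx and Prg3 and the basophil proteases Prss34 and Mcpt8 had lower levels in the deletion library, with Prg2 and Epx furthest from the control. Cpa3 and Siglecf had higher levels, Hdc was close to equal, and Ms4a2 and Fcer1a were too low to tell. Prg2, Epx and Prss34 were at least 2-fold lower by log2(FPKM + 1), no member was at least 2-fold higher, and 5 of the 8 counted members lay between. Over all 12325 genes at a mean of at least 1 FPKM, 3.38% were lower and 2.47% higher by this rule. Among the 10237 protein-coding genes, the type to which every member belongs, 0.752% were lower and 0.488% higher. The median log2 ratio of the 8 members, deletion over control, was -0.63, and that of the protein-coding genes was -0.014 with quartiles of -0.17 and 0.16. Epx and Prg3, at 0.78 and 0.88 FPKM in the deletion library, reached the minimum only through the control. The minimum itself thus favoured a lower ratio for these members. Without a minimum, 3 members were at least 2-fold lower and the median of the members was -0.34. The levels of the 10 genes summed to 89.1 FPKM in the control and 25.1 FPKM in the deletion library. Prg2 made up 56.0% of the control sum, and without it the sums were 39.2 and 23.0 FPKM.

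**Figure D1:**
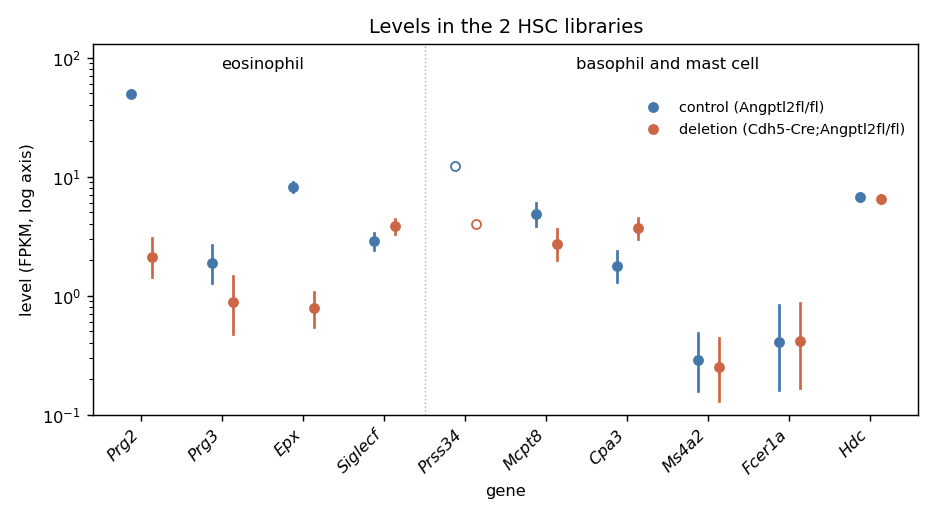
Level of each gene in FPKM (log axis) in the control (blue) and the deletion library (orange), with exact Poisson 95% intervals that cover counting error only; open circles mark Prss34, for which no fragment number was recovered. Prg2 and Epx show the widest gap between libraries, Siglecf and Cpa3 are higher in the deletion library, and the intervals of Prg3, Siglecf, Hdc, Ms4a2 and Fcer1a overlap.

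Prg2 (ENSMUSG00000027073) encodes major basic protein, the crystalline core of the eosinophil granule, and lies on chromosome 2 (84980461 to 84983632, plus strand, GRCm38). It was at 49.9 FPKM in the control (95% counting interval 46.3 to 53.6, from 726 fragments) and at 2.13 FPKM in the deletion library (1.43 to 3.03, from 30 fragments). The level was thus high in the control only, and the counting intervals of the libraries were far apart. The control was 23.5-fold higher, and the plain log2 ratio of -4.55 had a counting interval of -5.13 to -4.03. On the log2(FPKM + 1) scale the ratio was -4.02, the lowest of all 10237 protein-coding genes. Among all 12325 genes at the minimum it ranked 17 from the lowest. By level, Prg2 ranked 923 among protein-coding genes in the control and 8959 in the deletion library.

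Epx (ENSMUSG00000052234), on chromosome 11 (87864000 to 87875536, minus strand), encodes eosinophil peroxidase, which makes oxidants from hydrogen peroxide and halides. It was at 8.14 FPKM in the control (7.35 to 8.99, 387 fragments) and 0.78 FPKM in the deletion library (0.55 to 1.08, 36 fragments). These levels did not overlap within counting error, and the control was 10.4-fold higher (7.39 to 15.1). Its log2 ratio of -2.36 ranked 3 from the lowest protein-coding gene and 109 from the lowest of all genes at the minimum.

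Prg3 (ENSMUSG00000027072) encodes a homologue of major basic protein and starts 4583 bases beyond the end of Prg2 on the same strand (84988215 to 84993886). It was at 1.88 FPKM in the control (1.28 to 2.67, 31 fragments) and 0.88 FPKM in the deletion library (0.48 to 1.47, 14 fragments). Prg3 was lower in the deletion library too, by 2.15-fold with a counting interval of 1.11 to 4.37, and the intervals of its levels overlapped. Within a library, Prg2 exceeded Prg3 26.5-fold in the control and 2.43-fold in the deletion library.

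Siglecf (ENSMUSG00000039013), on chromosome 7 (43351341 to 43359531, plus strand), encodes a sialic acid-binding inhibitory receptor of the eosinophil surface that alveolar macrophages also carry. It went the other way, at 2.87 FPKM in the control (2.41 to 3.38, 139 fragments) and 3.81 FPKM in the deletion library (3.27 to 4.41, 179 fragments). The deletion library was 1.33-fold higher, with a log2 counting interval from 0.082 to 0.74, and the intervals of its levels overlapped. The eosinophil members were therefore not lower as a block: the 3 granule genes were lower and the surface receptor was not.

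Prss34 (ENSMUSG00000056399) encodes mast cell protease 11, a serine protease of basophils, on chromosome 17 (25298394 to 25300165, plus strand). It was at 12.3 FPKM in the control and 3.95 FPKM in the deletion library, 3.10-fold lower. Its log2 ratio of -1.42 ranked 27 from the lowest protein-coding gene and 302 from the lowest of all genes at the minimum. Its values did not fall on whole fragments of the gene model used, so it has no counting interval. Mcpt8 (ENSMUSG00000022157), on chromosome 14 (56082166 to 56085273, minus strand), encodes a protease used as a marker of mouse basophils. It was at 4.84 FPKM in the control (84 fragments) and 2.74 FPKM in the deletion library (46 fragments). Both basophil proteases were thus lower in the deletion library, Mcpt8 by 1.77-fold with a counting interval of 1.22 to 2.59.

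Cpa3 (ENSMUSG00000001865), on chromosome 3 (20215620 to 20242181, minus strand), encodes carboxypeptidase A3 of mast cell and basophil granules, and its mRNA also appears in early progenitors. It was the member with the highest ratio, at 1.78 FPKM in the control (1.31 to 2.37, 47 fragments) and 3.68 FPKM in the deletion library (2.97 to 4.50, 94 fragments). The plain ratio was 2.06-fold higher in the deletion library, with a log2 counting interval of 0.53 to 1.58, and the pseudocount of 1 FPKM brought the log2 ratio to 0.75. Hdc (ENSMUSG00000027360), on chromosome 2 (126593667 to 126619299, minus strand), was level at 6.76 FPKM in the control (6.29 to 7.27, 751 fragments) and 6.45 FPKM in the deletion library (5.98 to 6.95, 694 fragments). The counting interval of its log2 ratio, from -0.22 to 0.082, reached a 1.16-fold lower level with fragments taken as independent. With fragments divided by 6, a stricter setting described below, it was -0.45 to 0.31. Both cover counting error only.

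The specific subunits of the IgE receptor were near the detection limit. Fcer1a (ENSMUSG00000005339), the IgE-binding chain on chromosome 1 (173221284 to 173227214, minus strand), was at 0.40 and 0.42 FPKM in the control and deletion library, from 7 fragments in each. Ms4a2 (ENSMUSG00000024680), the signal-amplifying beta chain on chromosome 19 (11615523 to 11623719, minus strand), was at 0.29 and 0.25 FPKM from 14 and 12 fragments. Log2 counting intervals of -1.70 to 1.79 for Fcer1a and -1.42 to 1.04 for Ms4a2 do not exclude a 2-fold change in either direction at this depth.

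**Figure D2:**
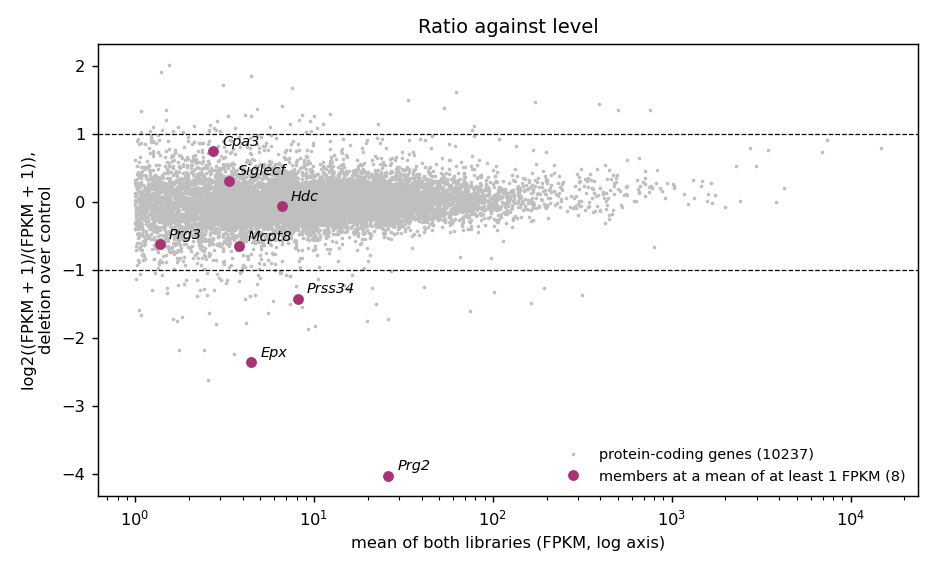
Log2 ratio on the log2(FPKM + 1) scale, deletion over control, against the mean level of both libraries in FPKM (log axis) for 10237 protein-coding genes (grey) and the 8 counted members (purple); dashed lines mark 2-fold. Prg2 at -4.02 lies below every other point, Epx and Prss34 lie below the lower line, and the other 5 members lie between the lines.

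Of the 7 counted members with fragment numbers, 4 had a counting interval wholly below equality (Prg2, Epx, Prg3 and Mcpt8), 2 wholly above (Cpa3 and Siglecf) and 1 across it (Hdc). Among 9668 protein-coding genes with fragment numbers 31.5% lay wholly below and 27.4% wholly above, so an interval on 1 side of equality is common between these libraries. Fragments that are copies of the same molecule are not independent. A division of all fragments by 6, a divisor picked in earlier work with these data in view, was used as a stricter setting. After it the intervals of Prg2 (log2 ratio -6.20 to -3.29) and Epx (-4.88 to -2.18) still lay below equality, as did those of 11.1% of protein-coding genes. Those of Prg3, Mcpt8, Siglecf and Cpa3 then included equality, with Mcpt8 at -2.31 to 0.55 and Cpa3 at -0.28 to 2.50.

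**Figure D3:**
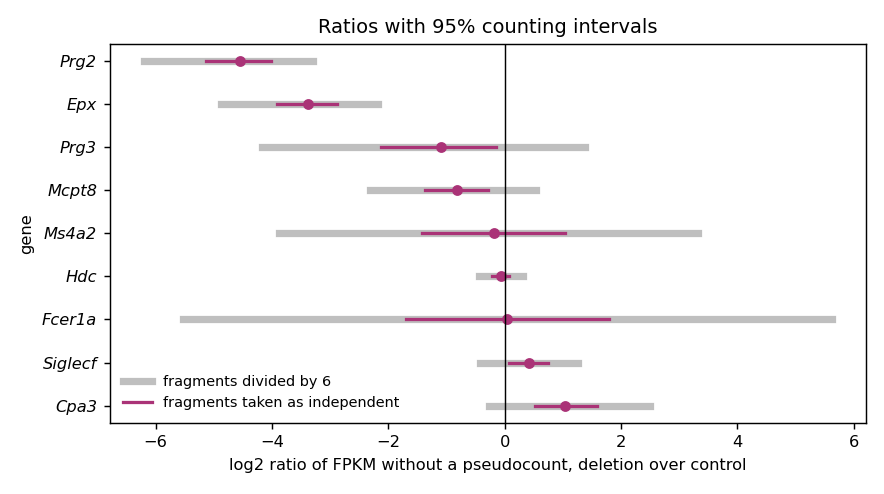
Log2 ratio of FPKM without a pseudocount, deletion over control, for the 9 members with fragment numbers, with exact 95% counting intervals from all fragments (purple) and from fragments divided by 6 (grey). Only the intervals of Prg2 and Epx stay below 0 in both forms.

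The order of the members by level differed between the libraries, FPKM being a level per length. In the control the order from the top was Prg2, Prss34, Epx, Hdc, Mcpt8, Siglecf, Prg3, Cpa3, Fcer1a and Ms4a2. Of neighbours in that order that both had fragment numbers, Prg3 and Cpa3 did not differ beyond counting error, nor did Fcer1a and Ms4a2. In the deletion library the order was Hdc, Prss34, Siglecf, Cpa3, Mcpt8, Prg2, Prg3, Epx, Fcer1a and Ms4a2. There the neighbours from Siglecf to Prg2 did not differ beyond counting error, Prg2 exceeded Prg3, and the neighbours from Prg3 to Ms4a2 again did not differ. Prss34 exceeded Cpa3 6.87-fold in the control and 1.08-fold in the deletion library.

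Upstream sequences were examined because GATA factors, which bind AGATAA or TGATAA, are shared regulators of these lineages. RefSeq promoters (GRCm38.p6) were matched for 9 of the 10 members, all but Prg2. In the 250 bases before the start, AGATAA or TGATAA on either strand was present in 5 of the 9 (Fcer1a, Prg3, Cpa3, Prss34 and Ms4a2), and in 16.6% of all 32851 promoters of that length. The C/EBP letters TTGCNNAA were found in 1 of 9 (Fcer1a; 9.56% of all promoters) and the PU.1 letters GAGGAA in 3 of 9 (Fcer1a, Siglecf and Mcpt8; 23.3%), on either strand. GATA matches stood in members that were lower (Prss34, Prg3), higher (Cpa3) and not distinguishable (Ms4a2, with 3 of them) between the libraries, while Epx had none in this window. The stretches of 2 lower members with a match, 1 higher member with a match and 1 lower member without are shown 5′ to 3′ in the direction of the gene, ending at the base before the start, with GATA letters in capitals. Prss34 is from chr17:25298144-25298393 (plus strand), Prg3 from chr2:84987965-84988214 (plus strand), Cpa3 from chr3:20242182-20242431 (minus strand) and Epx from chr11:87875537-87875786 (minus strand).
Prss34: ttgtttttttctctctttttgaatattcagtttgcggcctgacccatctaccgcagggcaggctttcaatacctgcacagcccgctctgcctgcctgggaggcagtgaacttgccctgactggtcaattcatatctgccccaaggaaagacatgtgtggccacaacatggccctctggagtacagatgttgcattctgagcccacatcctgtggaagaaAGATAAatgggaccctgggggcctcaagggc
Prg3: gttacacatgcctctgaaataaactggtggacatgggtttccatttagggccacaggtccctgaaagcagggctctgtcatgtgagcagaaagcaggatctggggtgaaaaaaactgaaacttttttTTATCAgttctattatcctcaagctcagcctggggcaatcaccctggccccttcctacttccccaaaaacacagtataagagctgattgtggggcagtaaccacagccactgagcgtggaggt
Cpa3: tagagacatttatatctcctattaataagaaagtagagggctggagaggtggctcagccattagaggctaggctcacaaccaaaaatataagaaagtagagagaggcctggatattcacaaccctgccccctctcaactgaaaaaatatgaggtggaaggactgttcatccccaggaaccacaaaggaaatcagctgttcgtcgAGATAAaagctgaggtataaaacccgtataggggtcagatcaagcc
Epx: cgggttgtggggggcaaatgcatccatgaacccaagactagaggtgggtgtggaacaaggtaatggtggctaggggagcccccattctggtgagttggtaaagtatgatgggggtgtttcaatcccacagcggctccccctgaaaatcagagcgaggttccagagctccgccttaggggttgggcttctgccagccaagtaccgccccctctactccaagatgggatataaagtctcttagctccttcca
The match in Prss34 lies 31 to 26 bases before the start, that in Cpa3 46 to 41 bases and that in Prg3 123 to 118 bases. A match of letters is a description and not a binding site.

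Chromosomal neighbours did not share the low ratios. Of 13 protein-coding genes that were among the 2 nearest on either side of a member, were no members and reached a mean of 1 FPKM, none was at least 2-fold lower and 3 were at least 2-fold higher. Slc43a3, 21952 bases from Prg2, was at 36.0 FPKM in the control and 33.4 FPKM in the deletion library. Mks1, 197 bases from Epx, was at 1.81 and 1.39 FPKM. The 3 higher genes were Ctsg, next to Mcpt8, at 90.1 and 252 FPKM, Ms4a3, next to Ms4a2, at 16.9 and 49.9 FPKM, and Atp8b4, near Hdc, at 6.25 and 14.4 FPKM.

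Related genes outside the set gave levels on both sides. Mpo, the neutrophil peroxidase related to Epx, was at 281 FPKM in the control and 723 FPKM in the deletion library, opposite in direction to Epx. Siglecg, a B cell relative of Siglecf, was at 1.87 and 4.35 FPKM, and Cd33 at 3.52 and 1.68 FPKM. Fcgr3, an IgG receptor that signals through the gamma chain of the IgE receptor, was at 6.66 and 17.9 FPKM, past 2-fold. Gzmb, a granzyme related to Mcpt8, was near the limit at 0.60 and 0.83 FPKM. Of other serine protease genes on the chromosome of Prss34, Prss28, Prss30 and Prss33 were at most 0.048 FPKM in the control and at 0 in the deletion library. Prss29 was at 0 in both. Sequence sharing between relatives was low: no stretch of 50 bases in transcripts of Prg2, Prg3, Epx, Prss34, Mcpt8, Cpa3 or Fcer1a occurred in a transcript of another gene. For Siglecf, Hdc and Ms4a2 the shares of such stretches were 0.206%, 0.141% and 2.10%.

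Further eosinophil genes were taken from a list of 15. Of the 6 that reached a mean of 1 FPKM, 5 had a log2 ratio below 0 and 1 was at least 2-fold lower, and the median was -0.71. Among them, Alox15 and Adgre1 reached that mean only through the control, so the minimum itself favoured a lower ratio for these genes. The count of lower genes was 3 with a pseudocount of 0.1, 4 with equal summed FPKM and 0 with a pseudocount of 5, and the median was -0.0064 at a minimum mean of 5 FPKM and -0.29 with a pseudocount of 5. The gene past 2-fold was Alox15, the 15-lipoxygenase of eosinophils and resident macrophages, at 2.09 FPKM in the control (89 fragments) and 0.024 FPKM in the deletion library (1 fragment), a log2 counting interval of -11.8 to -3.92. Alox5, the first enzyme of leukotriene synthesis, was at 4.30 and 2.50 FPKM, Adgre1, the macrophage and eosinophil surface protein F4/80, at 1.62 and 0.46 FPKM, and Cd24a, which many blood cells express, was level at 229 and 228 FPKM. Clec4a2 was highest, at 3.26 and 4.65 FPKM. The eosinophil-associated ribonuclease Ear6, below the minimum mean, was at 1.89 FPKM (31 fragments) in the control and had no fragment in the deletion library, where a floor of 3 fragments is 0.188 FPKM. Its relatives Ear2, at 4.72 and 2.23 FPKM, and Ear1, at 1.18 and 0.57 FPKM, are uncertain as separate genes, because 41.5% and 57.4% of their stretches of 50 bases occur in other genes. Ccr3, the eotaxin receptor, had 26 and 5 fragments. Il5ra, the receptor that defines committed eosinophil progenitors, had 1 fragment in the control and 8 in the deletion library, at 0.016 and 0.13 FPKM. Ear10, Retnla and Rnase2a were listed at 0 in both libraries.

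Of 15 further basophil genes, 7 reached the minimum, with 3 below 0, 4 above 0 and a median of 0.053, and -0.083 on the common-sum scale. Ms4a3, a gene of granulocyte and monocyte progenitors and basophils, was the only gene of that list past 2-fold (on the common-sum scale 2 were higher and 1 lower), and Csrp3 was second highest at 1.53 and 2.87 FPKM. Ccl3, a chemokine, was lowest at 13.4 and 9.46 FPKM, followed by Ifitm1 at 44.0 and 37.0 FPKM. Cd200r3, a basophil and mast cell surface receptor, had 8 fragments in the control against none in the deletion library. Il4, the cytokine of basophils and helper T cells, had 5 and 20 fragments, at 0.23 and 0.97 FPKM.

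Genes that define mature mast cells were at or near 0. Of 19 further mast cell genes, 8 were listed at 0 in both libraries: the proteases Cma1, Mcpt1, Mcpt2, Tpsab1, Tpsb2 and Tpsg1, the receptor Mrgprb1 and the serotonin enzyme Tph1. For Cma1, the floor of 3 fragments taken for a count of 0 is 0.158 FPKM in the control and 0.163 FPKM in the deletion library, counting error only. Mcpt4 had 6 fragments in the control and none in the deletion library, and Cma2 had none in the control and 8 in the deletion library. Mcpt9 and Mrgprb2 were listed at 0 in the deletion library only. The 5 that reached the minimum are also expressed outside mast cells, and none was past 2-fold. Srgn, the granule proteoglycan serglycin, was at 124 and 210 FPKM, Cd63, a granule membrane protein, at 13.8 and 23.8 FPKM, Rab27b at 0.95 and 1.75 FPKM, and Ndst2, an enzyme of heparin synthesis, at 28.8 and 20.8 FPKM. Slc18a2, which loads histamine into granules, was level at 13.7 and 13.9 FPKM, like Hdc.

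Most transcription factors of these lineages lay within 2-fold on the log2(FPKM + 1) scale. Of 20, 19 reached the minimum, with none at least 2-fold lower and 1 at least 2-fold higher, and the median log2 ratio was -0.094. The count of lower factors was 2 with a pseudocount of 0.1 and 3 on the common-sum scale. Gata1 stood at 92.9 and 86.9 FPKM and Gata2 at 42.2 and 40.3 FPKM. Cebpa, needed for granulocyte commitment, was at 9.28 and 13.6 FPKM, and Cebpe, needed for granule genes of neutrophils and eosinophils, at 14.9 and 18.7 FPKM. Gfi1, a transcriptional repressor that acts in neutrophil progenitors, was past 2-fold at 5.45 and 14.5 FPKM. Irf8 (2.10 and 0.58 FPKM) and Id2 (4.34 and 1.92 FPKM) were lowest, with plain ratios 3.61-fold and 2.26-fold lower, and Mitf, the mast cell factor, lay below the minimum at 0.84 and 0.30 FPKM. Trib1, a regulator of C/EBP alpha and of eosinophil identity, was at 10.9 and 5.75 FPKM.

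Cytokine receptors and IgE receptor signalling genes had no gene past 2-fold on the log2(FPKM + 1) scale. The common-sum scale gave 1 lower gene in each list, and a pseudocount of 0.1 gave 1 among the receptors. Of 14 receptors 11 were counted, with 9 below 0 and a median of -0.15. Csf2rb, the beta chain shared by the receptors of interleukin 3, interleukin 5 and GM-CSF, was at 4.11 and 2.37 FPKM, and its mouse-specific copy Csf2rb2 at 1.87 and 0.79 FPKM, a plain ratio 2.37-fold lower. They share sequence, 12.3% and 18.9% of their stretches of 50 bases occurring in other genes. Il3ra was at 5.68 and 4.26 FPKM, Il1rl1, the interleukin 33 receptor, at 8.18 and 8.65 FPKM, and Ifngr1 at 89.5 and 96.7 FPKM. Of 18 IgE receptor signalling genes 17 were counted, 11 of them below 0, with a median of -0.073. Lowest was Fcer1g, the gamma chain that IgE and IgG receptors share, at 26.1 and 13.9 FPKM, and highest was the adaptor Lat at 5.16 and 8.56 FPKM. Plcg1 (7.12 and 4.86 FPKM) was second lowest and Vav1 (31.4 and 36.5 FPKM) second highest.

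**Figure D4:**
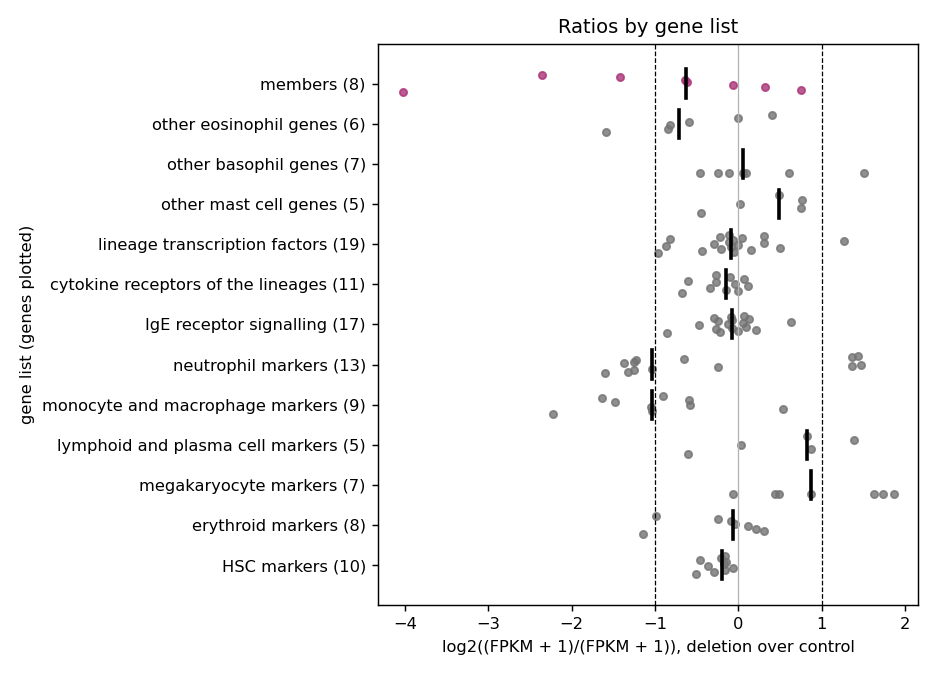
Log2 ratio on the log2(FPKM + 1) scale, deletion over control, of the genes at a mean of at least 1 FPKM in each list (number in brackets), with the list's median as a black bar and 2-fold as dashed lines; members in purple. The members reach furthest down, to -4.02, the neutrophil list splits to both sides, all cytokine receptors and IgE signalling genes lie between the dashed lines, and of the transcription factors Gfi1 alone, at 1.27, lies outside them.

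Markers of other blood cells differed between the libraries as well. Monocyte and macrophage markers had 5 of 9 counted genes at least 2-fold lower and none higher. The 12 markers summed to 294 FPKM in the control and 111 FPKM in the deletion library, most of each sum being Lyz2. The 5 lower genes were Fn1 (6.57 and 0.61 FPKM), Csf1r (4.44 and 0.75), Lyz2 (242 and 86.1), C1qa (9.07 and 3.88) and F13a1 (3.74 and 1.30). Of these, Fn1 and Csf1r reached the minimum only through the control, which favoured a lower ratio for them. The highest ratios were those of C1qc (4.20 and 2.49) and Vcam1 (3.69 and 5.78). Neutrophil markers had 7 of 13 at least 2-fold lower and 4 higher, summing to 3530 and 4072 FPKM. Lower were genes of later neutrophil stages, Ltf (112 and 36.3 FPKM), Ngp (455 and 175), Retnlg, Camp, Lcn2, Mmp8 and Ly6g, and higher were genes of primary granules, Ctsg, Prtn3 (210 and 571), Mpo and Elane. Megakaryocyte markers had 3 of 7 at least 2-fold higher, namely Treml1, Ppbp and Pf4 (79.6 and 173 FPKM over 8 genes). Ppbp, at 0.90 and 5.32 FPKM, reached the minimum only through the deletion library. Lymphoid and plasma cell markers had 1 of 5 higher, Nkg7, with Jchain and Cd79b lowest (62.8 and 109 FPKM over 10). Nkg7 alone, at 29.1 and 78.0 FPKM, made up most of the sum in the deletion library. Erythroid markers had 1 of 8 lower, Alas2, followed by Hbb-bt, with Car1 highest (1845 and 2137 FPKM). HSC markers had 0 of 10 past 2-fold in either direction, with Ly6a and Cd34 lowest (121 and 105 FPKM over 12). All 10 had a log2 ratio below 0, with a median of -0.19. None of the markers in these lists was listed at 0 in both libraries, and Cd3e, Cd3g and Gp1bb were at 0 in the deletion library only. The 8 eosinophil markers summed to 69.1 and 10.6 FPKM with none at 0. They include the members Prg2, Prg3, Epx and Siglecf, which alone summed to 62.7 and 7.59 FPKM. The 5 basophil markers, all members except Cd200r3, summed to 17.9 and 7.36 FPKM, with Cd200r3 at 0 in the deletion library. The 6 mast cell markers summed to 2.09 and 3.68 FPKM, all of it Mcpt4 and the member Cpa3. Cma1, Tpsb2, Tpsab1 and Mrgprb1 were at 0 in both libraries. These sums therefore mostly restate the levels of members. The part of these other cells in the levels of the 10 genes was not tested.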

How the data were processed

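RNA of sorted HSCs was sequenced as paired 150 bp reads, with 1 library per genotype and groups taken from the sample titles. The FPKM values were calculated and deposited by the authors. Bowtie 0.12.2 and mm8 appear in the submitters' processing notes without a role, and no label or header states which program or gene models produced the counts. The control column was matched through the sample description. FPKM depends on each library's total and on the gene model.

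Symbols came from a gene name list (54408 of 54531 identifiers matched), and exon lengths, gene types and positions from GENCODE M21 (GRCm38), not from mm8. Multiplied by exon length, 96.5% and 96.1% of values above 0 lay within 0.02 of a whole fragment number, which gave depths and fragments. Level intervals are exact Poisson and ratio intervals exact Clopper-Pearson at 95%, for counting error only. Each ratio is log2(FPKM + 1) of the deletion library minus that of the control, and counts use 2-fold and a mean of at least 1 FPKM. Python 3.11.15 with scipy 1.17.1 was used, and the computation was tested on simulated data.

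The members, the lists and the tests were chosen with earlier results of these data known. Named were all members, the ends of each list, any list gene past 2-fold and genes fixed by name, except that a few list genes the rule selects are not reported here. Beside these, Alox5, Ear1, Ear2, Ear6, Ccr3, Il4, Cd200r3, Trib1, Il3ra, Rab27b, Siglecg, Cd33 and the chromosomal neighbours were added after their values were seen, as were the shares among protein-coding genes and those with divided fragments. The alternatives were other pseudocounts, minimum levels, scalings and fold thresholds, and fragments divided by 6.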

Additional observations from a re-analysis of the deposited data

How the results depend on the processing

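The number of members at least 2-fold lower was 3 and ranged from 2 to 4 over 2 other pseudocounts, 2 other minimum levels, the 4-fold threshold and 4 scalings. It was 5 at the 1.5-fold threshold. The number at least 2-fold higher, 0, became 1 (Cpa3) with a pseudocount of 0.1 and 1 at the 1.5-fold threshold. With a pseudocount of 0.1 the log2 ratio of Prg3 passed 2-fold at -1.02 and that of Cpa3 at 1.01, and with a pseudocount of 5 that of Prss34 fell short at -0.95. Prg2 and Epx stayed at least 2-fold lower in every alternative run on their ratio. The median of the members, -0.63, was -0.91 with a pseudocount of 0.1, -0.29 with 5 and -0.34 without a minimum. At a minimum mean of 5 FPKM it was -1.42, the ratio of Prss34, because only Prg2, Prss34 and Hdc were left. It was -0.87 on the common-sum scale, -1.49 for eosinophil genes only and -0.35 for basophil and mast cell genes only. All genes together had a median of -0.16 on the common-sum scale instead of -0.011. Over all genes, 417 were at least 2-fold lower and 305 higher, against 118 and 74 with a pseudocount of 5, 97 and 83 at a minimum mean of 5 FPKM, 683 and 428 without a minimum, 749 and 708 at 1.5-fold, 165 and 75 at 4-fold, and 599 and 471 with a pseudocount of 0.1. The common-sum scale gave 1182 and 618, a setting that changes the pseudocount and the minimum in FPKM as well as the sums. No sign of a called member turned. Precision is limited by fragment number: 30 and 36 fragments carry Prg2 and Epx in the deletion library. No paired analysis was possible because each genotype has 1 library.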
